A study of Mus musculus with 18 samples.

Results

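The keratin family was taken as every gene whose symbol is Krt followed by a number and at most lower-case letters: 54 genes, of which 51 carried their symbol in the estradiol table of 56691 features and all 54 in the Torin table of 56893. Of these, 26 reached a mean of at least 0.5 CPM, the unit of counts scaled to a common library total, in any of the 6 groups and are described here: 4 basal, 5 luminal or simple, 10 stratified and 6 hair or nail keratins, and Krt90. Of these 26, 24 could be tested for estradiol and 23 for Torin, where Krt9, Krt42 and Krt83 did not pass the filter on low counts. Krt87, Krt88 and Krt90 had no symbol in the estradiol table and have values for the Torin experiment alone.

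Keratins are the intermediate filament proteins of epithelial cells, and each filament is built from a type I and a type II chain. In the mammary gland, basal myoepithelial cells carry mainly the Krt5 and Krt14 pair and luminal cells the Krt8 and Krt18 pair. Stratified keratins such as Krt6a and Krt16 are known from skin, oral and wound epithelium, and hair keratins from the hair shaft and nail.

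The RNA came from mammary epithelial organoids of wild-type nulliparous C57BL/6 mice. In the estradiol experiment, mice were about 24 weeks old and organoids were kept for 12 days in culture. They received 10 nM estradiol or its solvent ethanol, for 11 days by the titles of the samples. The column headers of the estradiol counts carry the tag J1 instead, so the length given rests on the titles. In the Torin experiment, mice were about 15 weeks old and organoids grew in Matrigel for 18 days, with 100 nM of the mTOR kinase inhibitor Torin 1 or its solvent DMSO, in arms labelled D6 and D12. Treatment lasted 6 days in D6 and 12 days in D12 by the titles of the samples, the reverse holds by the series design, and the labels also put the arms in different batches, so arm, length of treatment and batch cannot be told apart. Each of the 6 groups (ethanol, estradiol, DMSO D6, Torin D6, DMSO D12 and Torin D12) had 3 libraries. Nothing in the sources used here says that the 3 libraries came from separate animals, so the p-values measure the spread between these libraries.

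Libraries of the estradiol experiment held 20637473 to 24312079 counts, and Torin experiment libraries 23239364 to 28910688. The general epithelial markers (Epcam, Cdh1, Cldn3, Cldn4 and Cldn7) summed to 1993 to 3008 CPM, against 0.988 to 11.2 CPM for 4 immune, 3.81 to 14.0 CPM for 3 endothelial and 0.188 to 1.07 CPM for 3 adipocyte markers, and 251 to 1188 CPM for 6 fibroblast markers. Some libraries stood apart: the second ethanol library held counts of hair keratins that its mates lacked, and the third Torin library of each arm lay farthest from its mates (root mean square log2 distance of 0.600 in D6 and 0.305 in D12). In bulk RNA, fewer cells of a type and less RNA per cell cannot be told apart.

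All 54 genes lie in the keratin clusters of chromosomes 11 and 15, with 27 on each. Krt18, a type I gene, is the neighbour of the type II gene Krt8 at the end of the chromosome 15 cluster, whereas Krt5 (chromosome 15) and Krt14 (chromosome 11) are on different chromosomes. The 250 bases before the start of these 4 genes are shown because these are the 2 main filament pairs, whose levels the results turn on. They are from RefSeq (mouse build GRCm38.p6), which had an entry for 15 of the 26 described genes; they run 5′ to 3′ on the gene's strand, and the capitals mark a match to GCCNNNGGC. The positions are chr15:101712906-101713155 for Krt5, chr11:100206031-100206280 for Krt14 and chr15:102004343-102004592 for Krt8, all on the minus strand, and chr15:102027966-102028215 on the plus strand for Krt18.
Krt5: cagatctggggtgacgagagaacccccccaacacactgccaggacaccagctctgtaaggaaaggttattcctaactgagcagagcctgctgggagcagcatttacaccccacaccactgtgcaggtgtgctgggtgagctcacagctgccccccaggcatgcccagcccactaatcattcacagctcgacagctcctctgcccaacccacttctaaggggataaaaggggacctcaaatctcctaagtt
Krt14: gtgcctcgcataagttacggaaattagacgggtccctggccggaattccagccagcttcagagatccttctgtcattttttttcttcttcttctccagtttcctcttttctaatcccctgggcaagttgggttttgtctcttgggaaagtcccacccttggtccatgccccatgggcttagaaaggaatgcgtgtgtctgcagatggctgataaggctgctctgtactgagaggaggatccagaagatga
Krt8: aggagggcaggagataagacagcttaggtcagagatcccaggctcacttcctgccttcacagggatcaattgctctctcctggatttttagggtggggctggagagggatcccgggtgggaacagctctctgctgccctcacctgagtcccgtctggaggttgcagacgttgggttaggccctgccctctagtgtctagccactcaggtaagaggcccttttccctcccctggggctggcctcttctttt
Krt18: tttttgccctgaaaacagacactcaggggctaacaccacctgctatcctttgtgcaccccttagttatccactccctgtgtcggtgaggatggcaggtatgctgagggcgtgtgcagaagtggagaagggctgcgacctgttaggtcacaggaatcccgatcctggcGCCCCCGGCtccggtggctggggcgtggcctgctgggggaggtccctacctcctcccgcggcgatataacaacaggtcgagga
Both strands were searched for TATAAA (the TATA box), TGANTCA (AP-1), GCCNNNGGC (AP-2) and GGGCGG (the GC box). The match in Krt18, 83 bases before its start, was the 1 match found in the 4 sequences for these letters. Of 32851 mouse promoter windows searched, 12.4% held TATAAA, 6.75% TGANTCA, 13.7% GCCNNNGGC and 32.7% GGGCGG.

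In the ethanol libraries, keratins took 1.07 to 1.17% of all counts, and in the estradiol libraries 1.251 to 1.297%. In the Torin experiment, the share was 0.621 to 0.710% in DMSO D6 and 0.798 to 0.888% in Torin D6, but 0.790 to 0.808% in DMSO D12 and 0.483 to 0.669% in Torin D12. The share was therefore above that of every control library in the D6 arm and below that of every control library in the D12 arm. Per kilobase of transcript, the most abundant keratins in ethanol were Krt14 at 1979 ± 38.8 and Krt5 at 1816 ± 44.1 CPM per kilobase, followed by Krt8 at 694 ± 25.4 and Krt18 at 656 ± 12.3 (SD, n = 3). In DMSO D6, Krt18 led at 1639 ± 203 CPM per kilobase and Krt5 was the fifth at 314 ± 23.0 (SD, n = 3); Krt18 also led in the other 3 groups of that experiment. The 2 tables were processed separately, and mice and culture differed, so no test was made of these levels between experiments.

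With estradiol, 12 of the 24 tested keratins rose and 1, Krt18, fell, against 17.4% of all 15358 tested genes that rose and 16.6% that fell. The median log2 fold change of the 24 was 0.29, against -0.01 over all tested genes. Of the classes, 3 of 4 basal, 2 of 5 luminal, 5 of 10 stratified and 2 of 5 hair or nail keratins rose. The risen keratins include Krt4 (here and in both Torin arms), Krt42 with estradiol and Krt78 in both Torin arms. These would not have passed the filter on low counts without their treated libraries, so for them only a rise could show. Likewise Krt84, which fell in both Torin arms, and Krt87, which fell in D12, passed it through DMSO libraries alone. For them only a fall could show, and the counts given here include all of these genes. With Torin in D6, 8 of 23 tested keratins rose and 7 fell, against 19.8% and 19.3% of all 18112 tested genes (39.1% in either direction). There, 4 of 5 luminal keratins rose and 2 of 4 basal keratins fell. With Torin in D12, 3 rose and 12 fell, against 10.8% and 14.6% of all tested genes, and the falls took in 3 of 4 basal, 3 of 5 luminal, 4 of 9 stratified and 2 of 4 hair or nail keratins. Without the third Torin library of both arms, the counts were 9 and 9 in D6 and 4 and 13 in D12. The D12 falls numbered 7 without the first DMSO library of that arm and 8 without its second or its last DMSO library or its first or second Torin library, and the rises numbered 5 without the second DMSO library. Here and below, rose and fell mean an adjusted p under 0.05 in the quasi-likelihood test of edgeR, adjusted by Benjamini-Hochberg over all tested genes, and every adjusted p comes from that test.

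**Figure D1:**
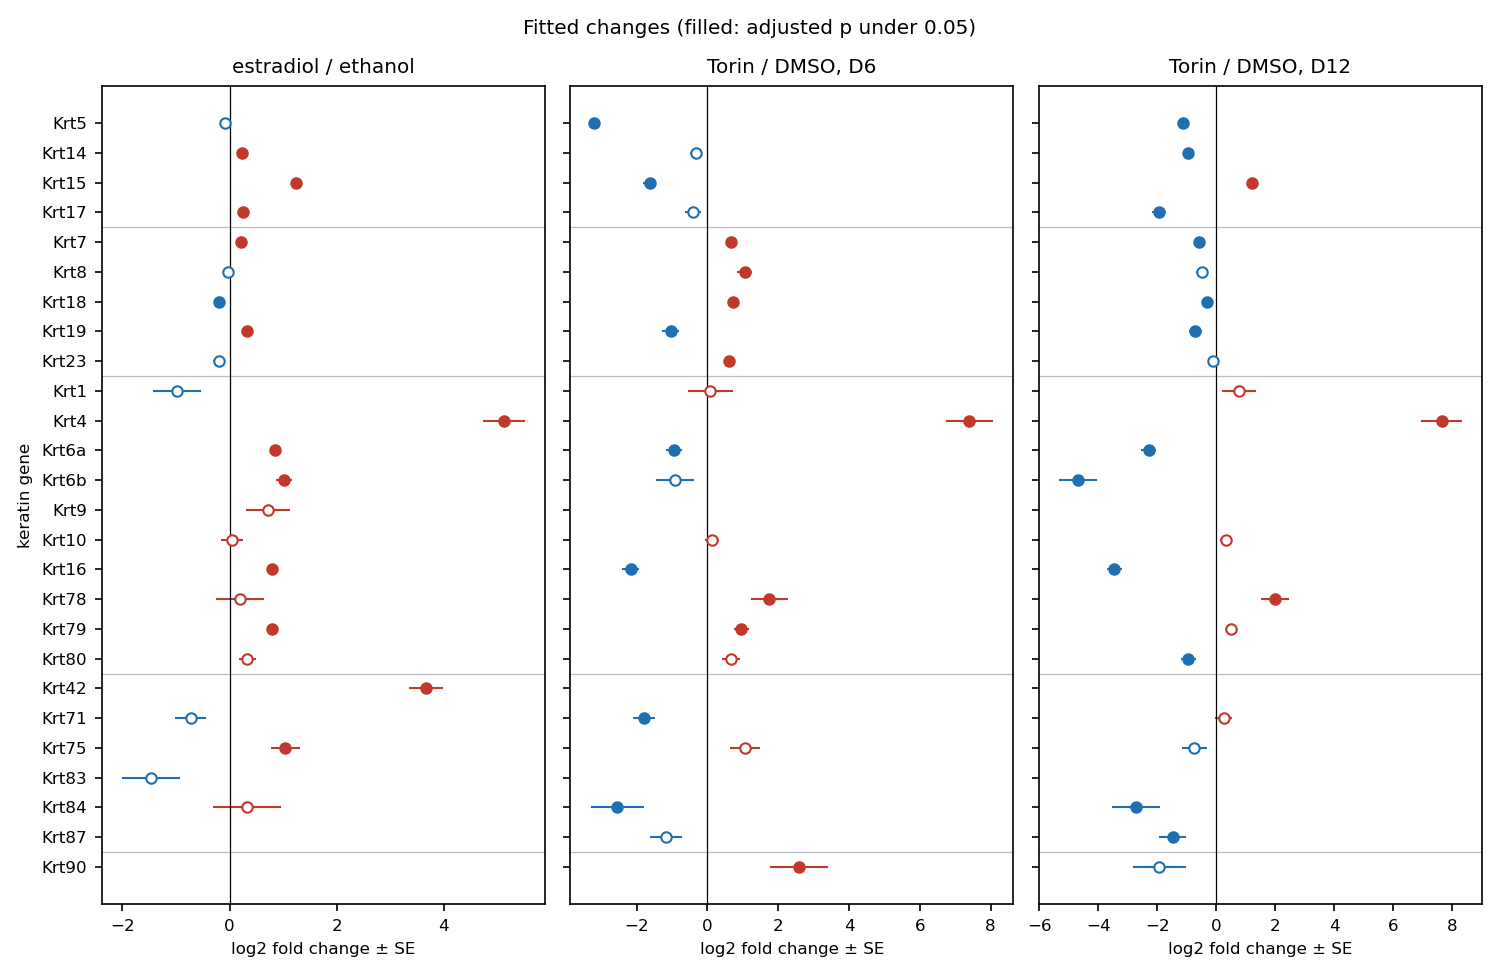
Fitted log2 fold change with its standard error (x axis; each panel has its own range) of the tested keratins (y axis; from top to bottom basal, luminal, stratified, hair and nail keratins and Krt90) for estradiol against ethanol and Torin against DMSO in each arm, with filled points past the threshold. Krt4 lies far to the right in all 3 panels, at 5.13, 7.40 and 7.64, while Krt15 lies right of 0 with estradiol and in D12 and left of it in D6.

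Krt5, the type II chain of basal cells, fell in both Torin arms and by more in D6, whereas Krt14, its type I partner, passed the test in D12 but not in D6. Krt5 stood at 3887, 4079 and 4004 CPM in the ethanol libraries and at 3877, 3705 and 3760.3 CPM in the estradiol libraries. Its D6 values were 695, 736 and 636 CPM with DMSO and 67.0, 71.5 and 87.5 CPM with Torin. Its D12 values were 836, 801 and 841 CPM with DMSO and 378, 349.5 and 408 CPM with Torin. Every Torin library lay below every DMSO library of its arm, and the D6 Torin libraries were the lowest of the series. The log2 fold change was -3.19 (SE 0.110, adjusted p = 5.00e-09) in D6 and -1.13 (SE 0.102, adjusted p = 1.52e-05) in D12, and the fall was smaller in D12 by 2.07 (SE 0.145, adjusted p = 8.02e-06). With estradiol the log2 fold change was -0.08 (SE 0.0333, adjusted p = 0.0876), which missed the threshold although the groups did not overlap.

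Krt14 measured 3313, 3435 and 3332 CPM with ethanol and 4106, 3816 and 3978 CPM with estradiol. The D6 libraries held 965, 1050.4 and 834 CPM with DMSO and 724, 666 and 874 CPM with Torin. The D12 libraries held 1364, 1390.2 and 1382 CPM with DMSO and 633, 568 and 925 CPM with Torin. The groups overlapped in D6 and in no other of these comparisons, and the third Torin library was the highest of its group in both arms. Krt14 rose with estradiol, by 0.24 on the log2 scale (SE 0.0351, adjusted p = 0.000101), and fell with Torin in D12, by 0.96 (SE 0.166, adjusted p = 0.00135). In D6 its log2 fold change was -0.33 (SE 0.165, adjusted p = 0.135), and -0.46 (adjusted p = 0.0401) without the third Torin library of that arm. Its Torin effects in the 2 arms were not shown to differ (-0.63, SE 0.233, adjusted p = 0.121), but without the third Torin library of D12 the difference was -0.87 with an adjusted p of 0.00682.

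Within a library, the count ratio of Krt5 to Krt14 was 1.173 to 1.202 with ethanol and 0.944 to 0.971 with estradiol. In D6 it was 0.701 to 0.762 with DMSO and 0.0925 to 0.107 with Torin. In D12 it was 0.576 to 0.613 with DMSO and 0.441 to 0.615 with Torin, where the groups overlapped. The ratio was thus lowest in Torin D6, and it separated the groups with estradiol and in D6 without any scaling between libraries. The plot of ratios within a library shows these values.

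**Figure D2:**
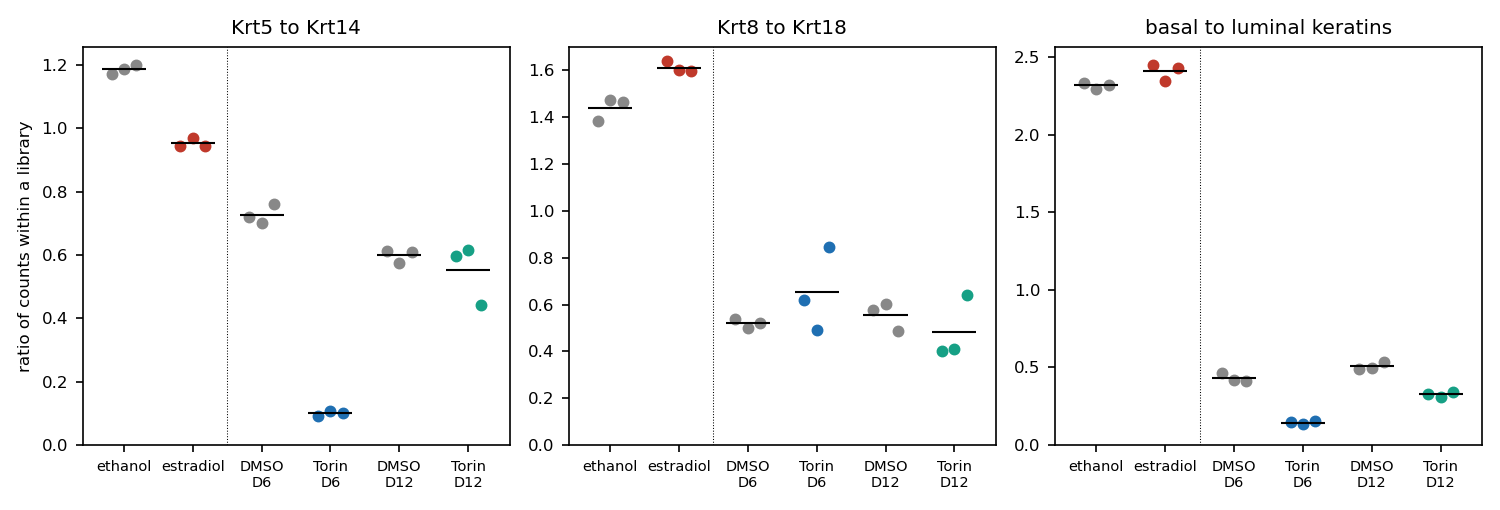
Ratio of counts within each library (y axis, from 0) for Krt5 to Krt14, Krt8 to Krt18 and the summed basal to the summed luminal keratins, by group (x axis), with 1 point per library and a bar at the mean of 3; the dotted line separates the experiments. The 3 Torin D6 points of Krt5 to Krt14 lie between 0.0925 and 0.107, below all other libraries.

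Krt15, a type I keratin of basal and stem-like epithelial cells, was the basal keratin whose Torin effect had opposite signs in the 2 arms. It measured 20.2, 24.5 and 25.8 CPM with ethanol and 61.2, 57.6 and 47.3 CPM with estradiol. In D6 it measured 45.8, 49.4 and 60.0 CPM with DMSO and 15.9, 15.6 and 18.6 CPM with Torin. In D12 it measured 43.8, 53.8 and 32.5 CPM with DMSO and 95.4, 91.9 and 116 CPM with Torin. The treated and control libraries did not overlap in any of the 3 comparisons, with Torin libraries lowest in D6 and highest in D12. Krt15 rose with estradiol by 1.24 on the log2 scale (SE 0.0960, adjusted p = 1.94e-07), fell by 1.63 in D6 (SE 0.176, adjusted p = 2.19e-05) and rose by 1.22 in D12 (SE 0.172, adjusted p = 0.000335). The difference between the arms was 2.85 (SE 0.246, adjusted p = 3.31e-05).

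Krt17, a type I keratin of basal cells and of activated epithelium, measured 315, 391 and 349 CPM with ethanol and 433, 410.4 and 412 CPM with estradiol. Its D6 values were 243, 297 and 224 CPM with DMSO and 183, 152 and 238 CPM with Torin. Its D12 values were 432, 377 and 499 CPM with DMSO and 95.7, 86.0 and 161 CPM with Torin. The Torin libraries were far below DMSO in D12 and overlapped with DMSO in D6. Krt17 rose with estradiol by 0.25 on the log2 scale (SE 0.0615, adjusted p = 0.00563) and fell by 1.93 in D12 (SE 0.236, adjusted p = 0.000127). The D6 value was -0.41 (SE 0.229, adjusted p = 0.177), or -0.61 (adjusted p = 0.0452) without the third Torin library, and the arms differed by -1.52 (SE 0.325, adjusted p = 0.0117).

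Of 10 other genes that mark basal myoepithelial cells, among them Acta2 and Myh11 of the contractile apparatus, 7 fell with estradiol, where 3 of 4 basal keratins rose. Their summed level was 1041 to 1233 CPM with ethanol and 862 to 944 CPM with estradiol. With Torin, 4 rose and 1 fell in D6, where Krt5 and Krt15 fell, and 2 rose and 1 fell in D12, with sums of 913 to 966 CPM in DMSO D6, 993 to 1178 in Torin D6, 882 to 975 in DMSO D12 and 966 to 1069.8 in Torin D12. The 6 fibroblast markers all fell in Torin D6, from a sum of 839 to 1188 CPM to 260.1 to 292 CPM, 4 of them rose with estradiol and 1 fell in D12. Over all tested genes, 17.4% rose and 16.6% fell with estradiol, 19.8% and 19.3% in D6, and 10.8% and 14.6% in D12. Beside these shares, nothing is read from the D12 counts over lists this short. The part of these cell types in the keratin values was not tested.

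**Figure D3:**
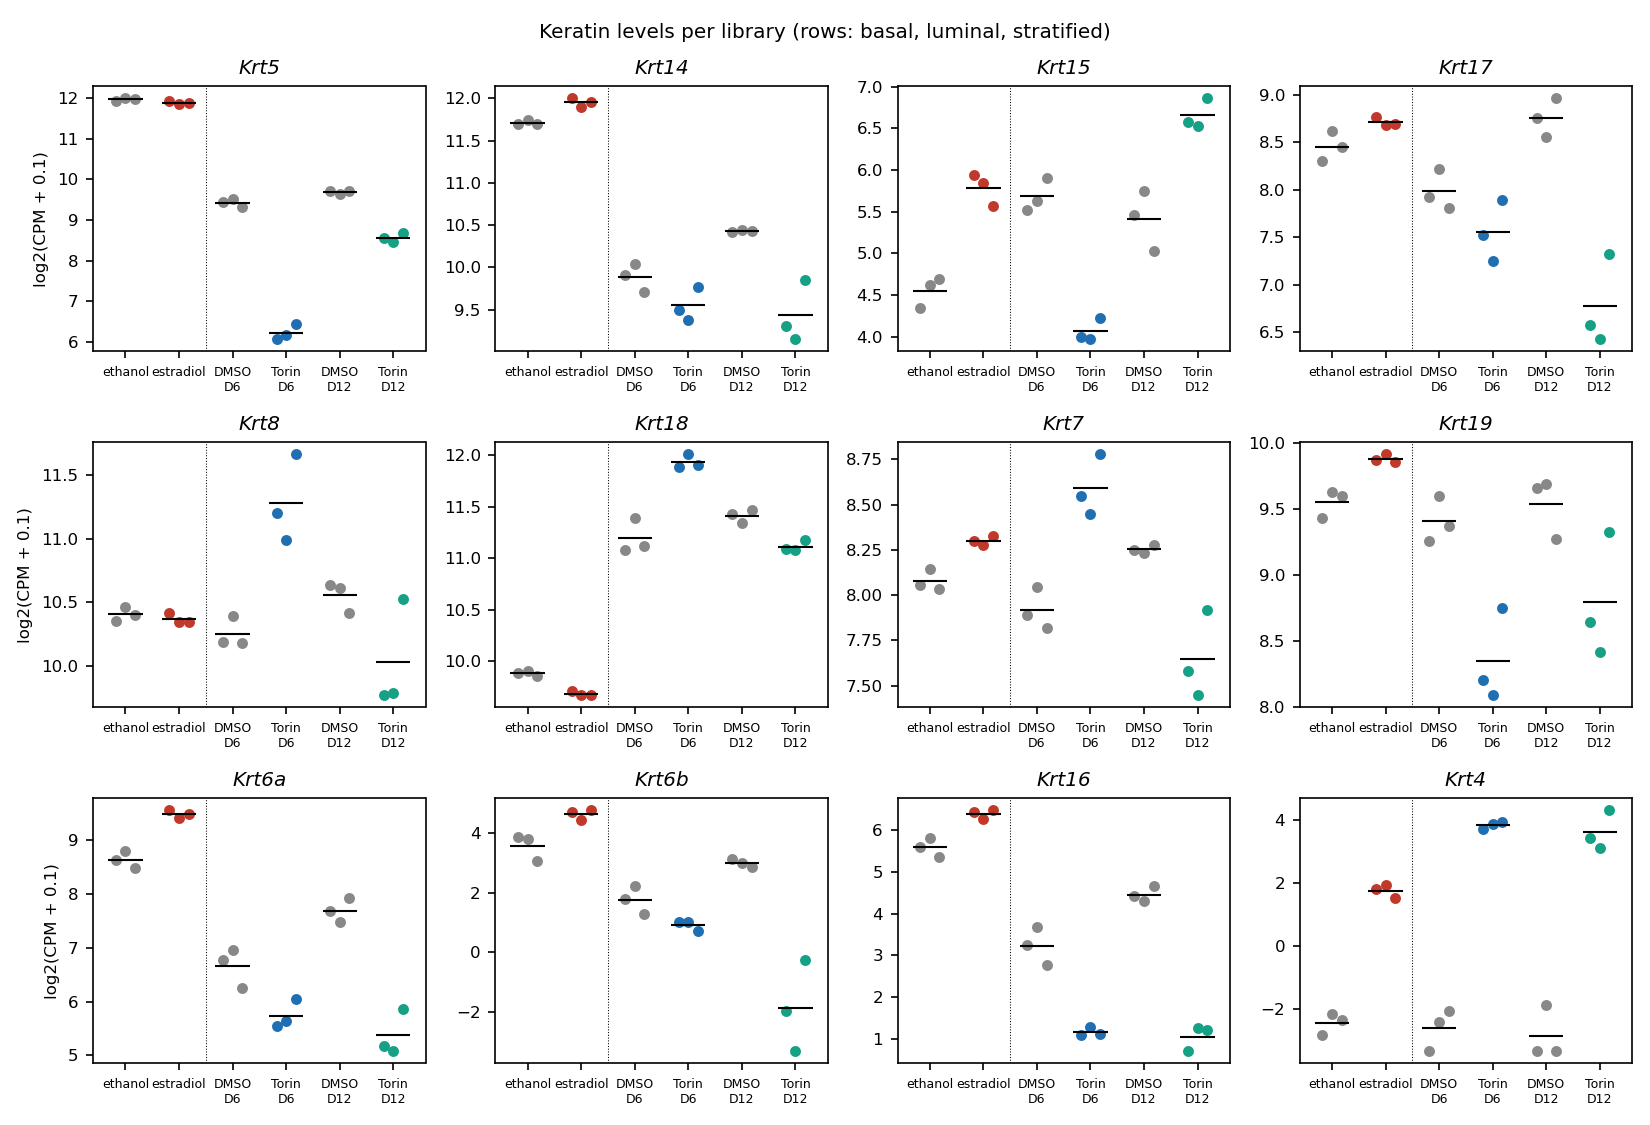
Level of 12 keratins in every library, as log2 of CPM plus 0.1 (y axis, with a range of its own in each panel), by group (x axis); points are libraries, bars the mean of 3, and rows hold basal, luminal and stratified keratins. Krt5 is lowest in Torin D6, Krt15 is low in Torin D6 and high in Torin D12, and Krt4 is near its floor in all 3 control groups.

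Of the luminal keratins, Krt7 and Krt18 rose with Torin in D6 and fell in D12. Krt8, the type II chain of simple epithelium, measured 1312, 1411 and 1352 CPM with ethanol and 1369, 1303 and 1302 CPM with estradiol. The D6 libraries held 1165, 1349 and 1159.9 CPM with DMSO and 2348, 2028 and 3242 CPM with Torin. The D12 libraries held 1593, 1566 and 1369 CPM with DMSO and 875, 883 and 1479 CPM with Torin. Torin libraries were all above DMSO in D6. In D12 the first and second Torin libraries lay below DMSO and the third lay among the DMSO values. Krt8 rose in D6 by 1.05 on the log2 scale (SE 0.211, adjusted p = 0.00201), and its log2 fold change in D12 was -0.48 (SE 0.209, adjusted p = 0.116), or -0.78 (adjusted p = 0.00694) without the third Torin library. The arms differed by -1.54 (SE 0.297, adjusted p = 0.00663). With estradiol the value was -0.04 (SE 0.0383, adjusted p = 0.507).

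Krt18, its type I partner, measured 948, 958 and 924 CPM with ethanol and 835, 814 and 814 CPM with estradiol. In D6 it measured 2158, 2689.9 and 2218 CPM with DMSO and 3779.7, 4121 and 3825 CPM with Torin. In D12 it measured 2763, 2596 and 2823 CPM with DMSO and 2174, 2156 and 2313 CPM with Torin. The groups overlapped in none of the 3 comparisons. Krt18 fell by 0.20 with estradiol on the log2 scale (SE 0.0350, adjusted p = 0.000470), rose in D6 by 0.73 (SE 0.0946, adjusted p = 8.73e-05) and fell by 0.30 in D12 (SE 0.0942, adjusted p = 0.0355). The D12 call was lost, at adjusted p between 0.0536 and 0.107, when any 1 library of that arm other than the third Torin library was left out. The arms differed by -1.03 (SE 0.133, adjusted p = 0.000502).

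The count ratio of Krt8 to Krt18 was 1.38 to 1.47 with ethanol and 1.60 to 1.64 with estradiol. In the Torin experiment it was 0.501 to 0.540 in DMSO D6, 0.492 to 0.847 in Torin D6, 0.485 to 0.603 in DMSO D12 and 0.402 to 0.639 in Torin D12. Only the estradiol comparison separated its groups, and in both Torin groups the third library had the highest ratio. The ratio of summed basal to summed luminal keratins separated the groups in all 3 comparisons: 2.30 to 2.34 with ethanol and 2.35 to 2.45 with estradiol, 0.410 to 0.466 with DMSO and 0.133 to 0.153 with Torin in D6, and 0.488 to 0.536 with DMSO and 0.307 to 0.343 with Torin in D12. It was lower with Torin in both arms, whereas the luminal sum itself was higher in D6 (0.695 to 0.761% of counts against 0.421 to 0.489%) and lower in D12 (0.364 to 0.490% against 0.495 to 0.526%).

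Krt7, a type II simple keratin of ducts, measured 267, 283 and 262 CPM with ethanol and 315, 309.7 and 321 CPM with estradiol. Its D6 values were 237, 264 and 225 CPM with DMSO and 375, 349 and 439 CPM with Torin. Its D12 values were 304, 301 and 309.7 CPM with DMSO and 191, 174 and 242 CPM with Torin. The groups did not overlap in any comparison. Krt7 rose with estradiol by 0.22 on the log2 scale (SE 0.0417, adjusted p = 0.000873), rose in D6 by 0.68 (SE 0.121, adjusted p = 0.000902) and fell by 0.59 in D12 (SE 0.120, adjusted p = 0.00375), and the arms differed by -1.27 (SE 0.170, adjusted p = 0.000663).

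Krt19, the smallest type I keratin and a marker of ductal and luminal cells, measured 689, 793 and 774 CPM with ethanol and 934, 965 and 925 CPM with estradiol. The D6 libraries held 610.3, 773 and 661 CPM with DMSO and 295, 272 and 429.6 CPM with Torin. The D12 libraries held 808, 825 and 617 CPM with DMSO and 400.1, 341 and 642 CPM with Torin. It was the 1 luminal keratin that fell in D6, and in D12 the third Torin library lay above the third DMSO library. Krt19 rose with estradiol by 0.32 on the log2 scale (SE 0.0478, adjusted p = 0.000104) and fell by 1.04 in D6 (SE 0.234, adjusted p = 0.00429). Its D12 value of -0.70 (SE 0.233, adjusted p = 0.0450) lost the call without the first or second library of either group (adjusted p = 0.130 to 0.164), and the arms were not shown to differ (0.33, SE 0.328, adjusted p = 0.580). Krt23, a type I keratin of simple epithelia at 7.46 to 19.9 CPM by group mean, rose in D6 from 13.1 ± 1.61 to 19.9 ± 1.47 CPM (SD, n = 3; adjusted p = 0.00215) and passed in no other treatment comparison.

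Of the 5 general epithelial markers named above, 3 rose in D6 (Cdh1, Cldn4 and Cldn7), where 4 of 5 luminal keratins rose. Their summed level was 2008 to 2402 CPM with DMSO and 2740 to 3008 CPM with Torin. In D12 1 of the 5 fell, Epcam, and the sums were 2334 to 2550 CPM with DMSO and 1993 to 2049 CPM with Torin. The lists for luminal cell types moved differently. Of 5 luminal progenitor markers 4 fell in D6 and 1 fell in D12. Their D6 sums were 4018 to 4609 CPM with DMSO and 3029 to 3101 CPM with Torin. Of 5 hormone-sensing markers 1 rose and 3 fell in each arm. With estradiol, 4 general markers rose and 1 fell, 2 progenitor markers rose and 2 fell, and 1 hormone-sensing marker rose and 3 fell. The shares over all tested genes were 19.8% risen and 19.3% fallen in D6, 10.8% and 14.6% in D12, and 17.4% and 16.6% with estradiol. Single calls in lists of 5 genes lie near these shares, and nothing is read from them. The part of these shifts in the keratin values was not tested.

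Among the stratified keratins, Krt6a, Krt6b and Krt16, which are induced together in wounded and hyperproliferative skin, all rose with estradiol and fell in Torin D12, and Krt6a and Krt16 also fell in D6. Krt6a measured 398, 447 and 359 CPM with ethanol and 757, 682 and 722 CPM with estradiol. In D6 it measured 109, 125 and 76.4 CPM with DMSO and 46.4, 49.6 and 65.9 CPM with Torin, and in D12 205, 178 and 243 CPM with DMSO and 35.9, 33.6 and 58.1 CPM with Torin. No comparison overlapped. Krt6a rose with estradiol by 0.84 on the log2 scale (SE 0.0641, adjusted p = 1.60e-07) and fell with Torin by 0.94 in D6 (SE 0.234, adjusted p = 0.00758) and by 2.29 in D12 (SE 0.242, adjusted p = 4.64e-05). The arms differed by -1.35 (SE 0.329, adjusted p = 0.0228), a call lost without the third DMSO library of either arm or the first or second Torin library of D12 (adjusted p = 0.0558 to 0.0629).

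Krt16, their type I partner, measured 48.6, 56.1 and 40.8 CPM with ethanol and 85.9, 76.9 and 89.2 CPM with estradiol. Its D6 values were 9.33, 12.8 and 6.68 CPM with DMSO and 2.04, 2.33 and 2.05 CPM with Torin. In D12 it measured 21.2, 19.5 and 25.0 CPM with DMSO and 1.52, 2.27 and 2.20 CPM with Torin. Both Torin groups lay at about the same level, below every DMSO library. Krt16 rose with estradiol by 0.79 on the log2 scale (SE 0.0859, adjusted p = 5.94e-06) and fell by 2.16 in D6 (SE 0.239, adjusted p = 2.57e-05) and by 3.45 in D12 (SE 0.247, adjusted p = 3.34e-06). The arms differed by -1.29 (SE 0.330, adjusted p = 0.0284), a call lost without the first or the third DMSO library of either arm, the first or second Torin library of D6 or the first of D12 (adjusted p = 0.0509 to 0.0750).

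Krt6b, the near copy of Krt6a, measured 14.6, 13.8 and 8.26 CPM with ethanol and 25.9, 21.7 and 27.2 CPM with estradiol. The D6 libraries held 3.34, 4.56 and 2.31 CPM with DMSO and 1.90, 1.92 and 1.56 CPM with Torin. In D12 it had 236, 222 and 195 counts with DMSO and 4, 0 and 21 counts with Torin, a ratio of depth-scaled counts of 0.0389 (95% counting interval 0.0250 to 0.0580). Krt6b was nearly absent in the first and second Torin libraries of D12, where Krt6a measured 35.9 and 33.6 CPM. It rose with estradiol by 1.02 on the log2 scale (SE 0.149, adjusted p = 9.71e-05), fell by 4.69 in D12 (SE 0.643, adjusted p = 0.000286) and had a log2 fold change of -0.92 in D6 (SE 0.533, adjusted p = 0.196). The intervals cover counting error only. In the GENCODE M21 transcripts, Krt6b shares 50.3% of its 31-base stretches with Krt6a, Krt14 shares 17.6% with Krt16, and Krt8 shares 32.2% with the pseudogene Krt8-ps, which had at most 5 counts in any library. How the authors' counting split reads between such copies is not stated, so the values of Krt6a and Krt6b are uncertain one by one; with their counts summed, the log2 fold change with estradiol was 0.85.

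Krt4, a type II keratin of moist stratified epithelia such as the oesophagus and tongue, had the highest fitted fold change of the tested keratins in all 3 treatment comparisons. It had 1, 3 and 2 counts with ethanol and 75, 81 and 59 counts with estradiol. In D6 it had 0, 2 and 4 counts with DMSO and 380, 386 and 398 counts with Torin, and in D12 0, 5 and 0 counts with DMSO and 278, 223 and 564 counts with Torin. Control libraries were at or near 0 in both experiments, and every treated library was far above them. Krt4 thus passed the filter on low counts through its treated libraries alone. A fall could not have been shown, so its rank and p-values describe a rise that the filter had already required. The ratio of depth-scaled counts was 37.1 with estradiol (95% counting interval 16.8 to 102), 178 in D6 (81.7 to 487) and 216 in D12 (92.5 to 668). The fitted log2 fold changes were 5.13 (SE 0.389, adjusted p = 1.59e-07), 7.40 (SE 0.673, adjusted p = 5.60e-06) and 7.64 (SE 0.688, adjusted p = 1.44e-05), and the Torin effects in the 2 arms were not shown to differ (0.23, SE 1.23, adjusted p = 0.930). The level reached was low beside the main keratins, at 3.30 ± 0.487 CPM with estradiol, 14.2 ± 1.15 in Torin D6 and 12.9 ± 6.00 in Torin D12 (SD, n = 3). Krt13, the type I chain that pairs with Krt4 in those epithelia, had 17 counts over all 18 libraries and could not be tested.

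Krt79, the chromosome 15 neighbour of Krt4 and a keratin of hair canal and gland duct cells, rose with estradiol from 19.3 ± 1.88 to 33.4 ± 3.12 CPM (log2 fold change 0.80, SE 0.0831, adjusted p = 3.97e-06) and in D6 from 4.90 ± 0.541 to 9.50 ± 0.960 CPM (0.96, SE 0.207, adjusted p = 0.00335; SD, n = 3). In D12 its means were 4.79 ± 1.46 and 6.85 ± 0.567 CPM (0.51, SE 0.207, adjusted p = 0.0936), with a log2 fold change of 0.75 (adjusted p = 0.0254) without the second DMSO library. Krt78, the next gene in that cluster, rose in both Torin arms at a low level. Without its Torin libraries it would not have passed the filter on low counts, so only a rise could show. It had 15 counts in DMSO and 55 in Torin in D6 and 27 and 106 in D12, with ratios of 3.37 (1.88 to 6.42) and 3.99 (2.59 to 6.33). The D6 call of Krt78 was lost without the first DMSO or the second Torin library (adjusted p = 0.0573 to 0.0700).

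Krt80, a type II keratin found in most epithelia, measured 5.50, 5.08 and 3.60 CPM with ethanol and 6.48, 5.17 and 6.30 CPM with estradiol. In D6 it measured 2.18, 4.29 and 2.74 CPM with DMSO and 3.80, 5.07 and 5.73 CPM with Torin. Its D12 values were 5.78, 4.60 and 5.56 CPM with DMSO and 3.27, 2.27 and 2.76 CPM with Torin. The groups overlapped with estradiol and in D6 and separated in D12. Krt80 fell by 0.94 in D12 on the log2 scale (SE 0.261, adjusted p = 0.0203), and the arms differed by -1.61 (SE 0.368, adjusted p = 0.0168). The D12 call was lost without the first or the third DMSO or the second Torin library (adjusted p = 0.0572 to 0.0816), and that of the difference without the third DMSO library of D6 (adjusted p = 0.0515). In D6 the log2 fold change was 0.67 (adjusted p = 0.0615), and 0.98 (adjusted p = 0.0125) without the second DMSO or 0.81 (adjusted p = 0.0390) without the first Torin library. Krt10, the type I keratin of the upper layers of the epidermis, passed in no comparison, with group means from 2.95 to 8.73 CPM. Its partner Krt1 stayed between 0.307 and 0.707 CPM by group mean and did not pass either. Krt9, a type I keratin of palm and sole skin, had 6, 12 and 7 counts with ethanol and 15, 15 and 10 with estradiol (log2 fold change 0.72, SE 0.413, adjusted p = 0.198), and 0 to 6 counts per library in the Torin experiment.

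Of the squamous markers, mostly genes of the cornified envelope, 1 of 6 tested with estradiol rose (Ivl, log2 fold change 1.74) and 3 fell, in D6 1 rose (Lor, 3.27) and 3 fell, and in D12 1 rose (Lor, 2.20) and 5 fell, of 8 tested in the Torin experiment. The largest falls were those of Sprr1b, at -5.45 in D6 and -4.34 in D12. Summed over the list, the level was 47.6 to 50.8 CPM with ethanol, 33.4 to 42.1 with estradiol, 50.5 to 74.3 in DMSO D6, 13.5 to 27.5 in Torin D6, 72.4 to 84.9 in DMSO D12 and 9.51 to 16.4 in Torin D12. Sprr3 had no count in any library. The shares over all tested genes were 17.4% risen and 16.6% fallen with estradiol, 19.8% and 19.3% in D6, and 10.8% and 14.6% in D12. The single rises among the squamous markers lie near or below these shares. The part of these genes' cells in the keratin values was not tested.

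No hair or nail keratin had a group mean above 2.90 CPM. Krt42, a type I nail keratin next to Krt17, had 4, 6 and 5 counts with ethanol and 73, 59 and 57 counts with estradiol, a ratio of 13.1 (95% counting interval 7.71 to 23.8), and it rose by 3.67 on the log2 scale (SE 0.324, adjusted p = 7.87e-07). It passed the filter on low counts through the estradiol libraries alone, so only a rise could show. In the Torin experiment Krt42 had 0 to 15 counts per library and was not tested. In D6 it had 7 counts in DMSO and 32 in Torin (ratio 4.20, 95% counting interval 1.82 to 11.3), and the groups did not overlap. In D12 it had 6 and 12 counts (ratio 2.03, 0.706 to 6.60), and the groups overlapped. Krt75, a type II keratin of the companion layer of the hair follicle, rose with estradiol from 1.34 ± 0.262 to 2.77 ± 0.808 CPM (SD, n = 3; log2 fold change 1.04, SE 0.271, adjusted p = 0.00832), a call lost without the first estradiol library (0.85, adjusted p = 0.0537). Krt71, of the inner root sheath, fell in D6 from 2.62 ± 1.04 to 0.751 ± 0.0657 CPM (log2 fold change -1.79, SE 0.315, adjusted p = 0.000847; SD, n = 3) and measured 2.03 ± 0.222 and 2.42 ± 0.530 CPM in D12; the arms differed by 2.05 (SE 0.430, adjusted p = 0.0106). Krt84 fell in both arms, from 55 to 10 and from 42 to 6 counts, and Krt87 fell in D12, from 49 to 17 counts. Both genes passed the filter on low counts through DMSO libraries alone, so for them only a fall could show. The D6 call of Krt84 was lost without the first DMSO library (adjusted p = 0.0730). Its D12 call was lost without any 1 library of that arm (adjusted p = 0.0524 to 0.0928). The D12 call of Krt87 was lost without any 1 library of that arm other than the second Torin library (adjusted p = 0.0726 to 0.129). Without that library, the log2 fold change of Krt87 was -1.99 (adjusted p = 0.0231). Krt90 rose in D6 from 17 to 112 counts (ratio 6.06, 95% counting interval 3.62 to 10.8), with the third Torin library the lowest of the 3 at 17 counts. That call was lost without the second or the third DMSO or the first or second Torin library (adjusted p = 0.0616 to 0.0920), whereas in D12 Krt90 had a log2 fold change of -1.93 (adjusted p = 0.147), or -4.47 (adjusted p = 0.0158) without the third Torin library.

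The other 28 keratins stayed under 0.5 CPM in every group, with 0 to 65 counts over all 18 libraries, and Krt24 had a count in none. Of these 28, 14 were highest in the second ethanol library, and 13 of the 14 are hair or nail keratins. Summed over 19 rare hair and nail keratins, that library had 240 counts, against 9 to 19 in the other 5 libraries of its experiment and 4 to 11 in those treated with Torin or DMSO. Single genes that all but lacked counts elsewhere, such as Krt86 (34 counts), Krt34 (30), Krt81 (30), Krt33b (29) and Krt31 (28), made up much of that sum. The keratin-associated protein genes, which encode the matrix of the hair shaft, had 157 counts there and 0 to 6 in every other library. Fixed hair follicle markers did not stand out in it: Hoxc13 had 0 counts, Foxn1 33 against 34 and 25 in its mates, and Tchh 187 against 138 and 211. Krt83 had 45 counts in that library against 9 and 16 in its mates, and its log2 fold change with estradiol was -1.47 (adjusted p = 0.0511), or -1.85 (adjusted p = 0.0117) without the first ethanol library and -0.64 (adjusted p = 0.427) without the second. In the Torin experiment Krt83 was not tested; it had 1 count in DMSO and 22 in Torin in D6 (ratio 20.2, 95% counting interval 3.27 to 834) and 1 and 31 in D12 (31.5, 5.25 to 1284), and the groups did not overlap in either arm. Krt83 shares 29.9% of its 31-base stretches with Krt86, so its counts are uncertain. The same limit holds for Krt87, which shares 26.8% with Gm49425, and for Krt16, which shares 32.2% with Gm11597. In the Torin experiment Gm49425 had at most 1 count in any library, and Gm11597 had at most 4 in the estradiol experiment. Without the filter on low counts, 9 keratins would be listed as having fallen with estradiol, and 7 of the 8 other than Krt18 had 16 or more counts in that library and at most 2 in any other. With that library left out as well, 12 rose and 1 fell.

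**Figure D4:**
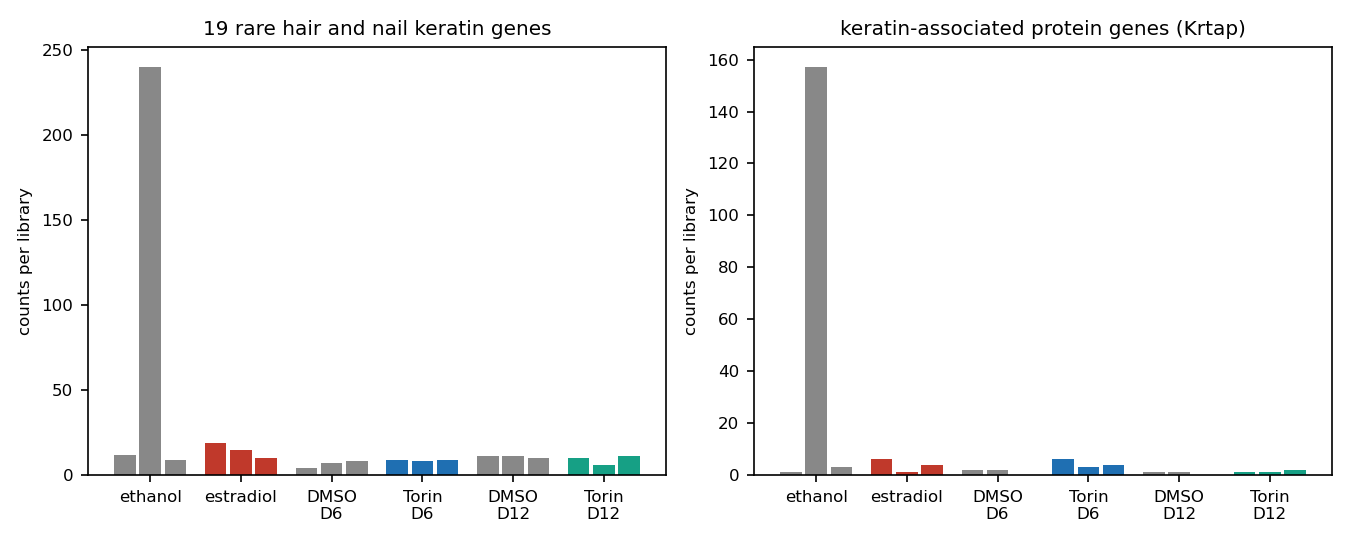
Counts per library (y axis, from 0), by group (x axis, 3 bars each), summed over 19 rare hair and nail keratins (left) and over the keratin-associated protein genes (right). The second ethanol library holds 240 and 157 counts, above the other 17 libraries in both panels.

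The Torin effect differed between D12 and D6 for 13 of 23 tested keratins, 3 upward (Krt5, Krt15 and Krt71) and 10 downward, against 5.03% and 5.55% of all tested genes. For Krt5 the fall was smaller in D12, for Krt71 the D12 value was 0.26 and not called, and for Krt15 the signs were opposite. Of the 10 downward, 4 were luminal (Krt7, Krt8, Krt18 and Krt23), 4 stratified (Krt6a, Krt6b, Krt16 and Krt80), and the others were Krt17 and Krt90. Krt7 and Krt18 rose in D6 and fell in D12. Without the third Torin library of both arms, 3 were upward and 12 downward; without the third DMSO library of D6 or the first Torin library of D12 alone, 6 were downward. Between the solvent groups, DMSO D12 against DMSO D6, edgeR called no keratin in the fit of all 4 groups and 4 upward in a fit of the DMSO groups alone (Krt6a, Krt14, Krt16 and Krt17). In the first fit 9 of 23 had an unadjusted p under 0.05, DESeq2 called 2 upward (Krt6a and Krt16) and limma none, and 0.00552% of all genes were called to have fallen. The median log2 difference of the 23 was 0.26, against 0.01 over all tested genes, with the highest for Krt16 (1.196, SE 0.221, adjusted p = 0.776) and Krt6a (1.01).

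Keratin filaments are anchored at desmosomes between cells and at hemidesmosomes on the basement membrane, and their genes are controlled by factors such as Trp63 and Klf4. Of the 55 genes in lists for these partners, other intermediate filaments and regulators, 15 of 50 tested rose and 12 fell with estradiol, 12 of 53 rose and 15 fell in D6, and 5 rose and 19 fell in D12. Of all tested genes, 17.4% rose and 16.6% fell with estradiol, 19.8% and 19.3% in D6, and 10.8% and 14.6% in D12, shares that the partner and regulator counts are read against. The 5 that rose in D12 became 1 without the first or second DMSO or the first Torin library of that arm, 2 without its second Torin library and 13 without the third Torin library of both arms. Medians were -0.01, -0.01 and -0.21 on the log2 scale, against -0.01, 0.05 and 0.01 over all tested genes. In D12 the fallen genes included 8 of 14 desmosome genes, and the other 6 did not pass. Among desmosome genes, the cadherin Dsg3 rose with estradiol by 0.51 (SE 0.0512) and fell by 1.38 in D12 (SE 0.120), and the cadherin Dsc3 fell by 2.08 in D6 (SE 0.0974) and fell by 0.97 in D12 (SE 0.0935). Dsg1a, a cadherin of the upper epidermis, fell by 5.20 in D6 (SE 0.904) and by 3.42 in D12 (SE 0.665). Jup, the plaque protein plakoglobin, rose with estradiol by 0.33. The plakin Ppl fell by 0.30 with estradiol, rose in D6 by 0.41 and fell by 0.56 in D12. Dsc2 fell by 0.53 in D12.

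Of 9 hemidesmosome genes, 4 rose and 2 fell with estradiol, 1 rose and 4 fell in D6, and 1 rose and 3 fell in D12; beside the shares over all tested genes given above, nothing is read from counts over 9 genes. Col17a1, the transmembrane collagen of hemidesmosomes, rose with estradiol by 0.24 (SE 0.0391) and fell by 1.84 (SE 0.124) in D6 and by 0.45 (SE 0.120) in D12. Lamb3 and Lama3, chains of laminin-332, fell by 0.88 and 1.21 in D6 and by 0.85 and 0.49 in D12. Dst, the linker of keratin to the hemidesmosome, fell by 0.24 with estradiol and by 0.53 in D6. Of other intermediate filament genes, Vim, the filament of mesenchymal cells, rose with estradiol by 0.26 and fell by 1.24 in D6 and 0.61 in D12. Nes rose with estradiol by 0.87 and fell by 0.69 in D6, and Synm fell by 0.79 with estradiol and by 1.05 in D12. Nefh rose in D6 by 3.19 and in D12 by 2.69. Lmnb2 rose with estradiol by 0.19, in D6 by 0.36 and in D12 by 0.79.

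Of 20 tested regulators, 3 rose and 7 fell with estradiol, 6 rose and 4 fell in D6, and 2 rose and 6 fell in D12. At the shares of all tested genes given above, several of these counts lie near the background, among them the 3 rises with estradiol, the 4 falls in D6 and the 2 rises in D12. Klf4, a factor of epidermal barrier formation, rose with estradiol by 1.53 (SE 0.0688) and in D6 by 2.47 (SE 0.342). Cebpa and Klf5 fell with estradiol, by 0.63 and 0.44, whereas Klf5 rose in D6 by 1.00. In D6, Tfap2c, an AP-2 factor, fell by 0.89 and Grhl3, a grainyhead factor of barrier formation, rose by 2.02. Tfap2c also fell with estradiol, by 0.37. In D12, Zfp750, which acts in terminal epidermal differentiation, fell by 1.03, Elf3 by 0.71 and Grhl1 by 0.33. Elf3 also fell with estradiol, by 0.68, and in D6, by 0.56. Trp63, the factor that maintains basal identity, had log2 fold changes of -0.04 with estradiol and -0.19 in D6, neither called, and rose in D12 by 0.45 (SE 0.118, adjusted p = 0.0151); it was chosen here after its values were seen.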

How the data were processed

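Polyadenylated RNA was sequenced as stranded paired-end libraries, per the labels' protocols. The tools listed in the submitters' processing notes are kallisto, Trim Galore with cutadapt, MultiQC, FastQC and DESeq2, and the build is GRCm39; versions and roles are not given in the sources used here. The estradiol table deposited by the authors holds estimated counts (32.2% of them not whole), which were rounded, and their Torin table holds whole counts by symbol. For both the authors also deposited a normalized signal, used here in alternatives alone. How reads of near-identical genes were assigned is not given in the sources used here. Torin samples beyond the 12 used, which the series text mentions, were not analysed here.

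Each experiment was fitted separately with edgeR 4.0.16 in R 4.3.3 (filterByExpr, TMM, quasi-likelihood test on group means, no covariates), and a call needed a Benjamini-Hochberg adjusted p below 0.05. CPM are counts over the TMM-scaled library total, and the standard error is the log2 fold change over the square root of F. After the filter, 15358 genes were tested for estradiol and 18112 for Torin, and the common biological coefficient of variation was 5.27% and 20.2%. On simulated counts, 84.2% of 2-fold and 99.0% of 4-fold changes were recovered for estradiol (15109 genes) and 57% and 83.5% for Torin D6 (17668 genes). Per-kilobase levels used the principal GENCODE M21 transcript.

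The members, the lists and the tests were chosen with earlier results of these data known. Values in every library are given for keratins with a group mean of at least 5 CPM and a called log2 change of at least 1 in any contrast, and for Krt5, Krt14, Krt8 and Krt18; other described keratins have means, ranges or counts. From each partner list the 3 called genes of lowest p per treatment are named. Such a gene may also have passed in a comparison for which no value is given. A gene taken by this rule is not reported here. Single marker genes were named after their values were seen. The alternatives comprised DESeq2 1.42.0, limma 3.58.1 on log2 of the deposited signal plus 1, RLE size factors, no filter, at least 1 CPM in 3 libraries, the compared groups alone, Krt6a and Krt6b summed, the replicate number as a block, and each library left out. Some alternatives were added after seeing the data.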

Additional observations from a re-analysis of the deposited data

Results flagged for a closer look

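For 13 keratins the test of the difference between the Torin effects of the 2 arms (D12 minus D6, on the log2 scale) passed the threshold of the quasi-likelihood test of edgeR, adjusted by Benjamini-Hochberg. The difference was positive for Krt5 (2.07), Krt15 (2.85) and Krt71 (2.05). It was negative for the luminal keratins Krt7 (-1.27), Krt8 (-1.54), Krt18 (-1.03) and Krt23 (-0.71), for Krt17 (-1.52), for the stratified keratins Krt6a (-1.35), Krt6b (-3.76), Krt16 (-1.29) and Krt80 (-1.61), and for Krt90 (-4.50). For Krt16 and Krt6a the DMSO groups differed more than the Torin groups. Krt16 means were 9.59 (D6) and 21.9 CPM (D12) with DMSO, and 2.14 and 2 CPM with Torin. Krt6a means were 104 and 209 CPM with DMSO, and 54.0 and 42.5 CPM with Torin. The DMSO means of Krt17 and Krt80 also lay apart. Krt17 means were 255 and 436 CPM with DMSO, and 191 and 114 CPM with Torin. Krt80 means were 3.07 and 5.31 CPM with DMSO, and 4.87 and 2.77 CPM with Torin. Arm, treatment length and batch cannot be told apart. The difference of Krt23 lost the call without the second DMSO library or the first or second Torin library of D12 (adjusted p = 0.0540 to 0.0576). That of Krt90 lost it without any 1 library other than the first DMSO library of D6 and the third Torin library of each arm (adjusted p = 0.0540 to 0.0929). Krt6a, Krt16 and Krt80 also lost it without certain libraries, named beside their values above.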

How the results depend on the processing

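Of 1774 single-keratin values under alternatives, 1682 stayed on the same side of the threshold, 62 lost the call and 30 gained it. No value called in the main fit or in the alternative reversed its direction. Where neither fit called a value, directions were not compared. With estradiol, 12 keratins rose under DESeq2, RLE size factors, limma, no filter and the stricter filter, and 11 with Krt6a and Krt6b summed. The 1 keratin that fell became 9 without a filter and 2 with at least 1 CPM in 3 libraries. Between the DMSO groups, DESeq2 called 2 and the fit of the compared groups alone 4 keratins upward, where the full fit called 0. Partner and regulator genes that rose in D12 numbered 5, but 3 with limma, 8 in the compared groups alone and 13 without the third Torin library of both arms, an alternative chosen after seeing the data; that omission also moved the upward count of the arm difference from 7 to 13.

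With each library left out in turn, the keratins that fell with estradiol numbered 1 to 2, those that rose in D12 3 to 5, those that fell in D12 7 to 12 and those downward between arms 6 to 12. Leaving out the first DMSO library of D12 gave the 7, the second DMSO library of D12 the 5, and the third DMSO library of D6 or the first Torin library of D12 the 6. Partner genes that rose ranged from 1 to 6 in D12 and from 4 to 9 between arms.

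Same-numbered libraries of treated and control groups correlated at -0.0567 to -0.0247 with estradiol, -0.0500 to 0.0664 in D6 and -0.237 to -0.0759 in D12, so replicate numbers were not taken as pairs. With the replicate block, 2 keratins fell with estradiol and 2 partner genes rose in D12. In each library a gene at a few counts, such as most hair keratins, could not show a moderate change at this depth.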
